A study of Mus musculus with 6 samples.

Results

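The genes described here encode the T cell receptor complex and its coreceptors in whole epididymis of wild-type (WT) and occludin-knockout (Ocln-KO) mice. They are the 10 rows of the deposited count table whose symbols are Cd3d, Cd3e, Cd3g, Cd247, Cd4, Cd8a, Cd8b1, Lck, Cd2 and Foxp3, out of 57127 rows in all, chosen by name. Of these 10 genes, 9 had at least 1 count and 6 passed the filter on low counts and were tested. Total RNA from the whole organ of adult C57BL/6 males was sequenced after ribosomal RNA depletion, with 3 WT and 3 Ocln-KO (Ocln-/-) libraries. The Ocln-KO males came from heterozygous matings, carry a germline deletion that is not restricted to the epididymis, and were housed like the WT under specific pathogen-free conditions with no treatment. The methods speak of animals extracted separately and also of pooled RNA, so n counts libraries, and p-values measure the spread between libraries.

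A T cell recognizes peptides held by major histocompatibility molecules with a clonotypic receptor that has almost no signalling tail of its own. The receptor reaches the membrane only together with the CD3 delta, epsilon and gamma chains (Cd3d, Cd3e, Cd3g) and the zeta chain (Cd247), whose tails carry the signal inward. The coreceptors CD4 and CD8 bind class II and class I molecules and bring the kinase LCK to those tails. In the mouse epididymis, T cells are known to lie between the epithelial cells and in the interstitium, beside a dense network of mononuclear phagocytes.

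The 6 libraries held 30646424 to 38870780 counts over 57127 rows, so that 1 count was worth 0.0267 to 0.0314 CPM (the usual depth-scaled count, here relative to totals adjusted by TMM factors). Ocln itself had 3213, 2689 and 3409 counts in WT and 486, 489 and 503 in Ocln-KO, a log2 fold change of -2.50 (SE 0.09, edgeR adjusted p = 0.000108), so all 6 libraries matched their genotype labels. One protocol field names prefrontal cortex where the tissue field names epididymis; the epididymal gene Crisp1 had 150002 to 627311 counts. Of 8 forebrain genes, Neurod6 was at 0 in all 6 libraries and Snap25 had at most 2 counts, while Slc17a7, Camk2a and Gfap had 5 to 23, Gad1 23 to 68, Syt1 316 to 413 and Mbp 359 to 563 counts per library. The first principal component, holding 47.2% of the variance of log2 CPM over tested genes, placed WT at -37.0 to -52.8, Ocln-KO replicates 1 and 2 at 17.7 and 29.1, and Ocln-KO replicate 3 apart at 86.3. The caput genes Gpx5 (231451 and 339223 counts against 8221 in Ocln-KO replicate 1 and 978 to 5863 in WT) and Spag11b (4580 and 7261 counts against 35, and 5 to 18 in WT) were far higher in Ocln-KO replicates 2 and 3 than elsewhere. Values without these 2 libraries are therefore given beside each member below where they turn a direction.

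The 3 CD3 genes are neighbours on mouse chromosome 9, and the 2 CD8 genes are neighbours on chromosome 6 (RefSeq, GRCm38.p6). Cd3g (chr9:44969572-44980431, minus strand) and Cd3d (chr9:44981769-44987052, plus strand) run away from each other across 1337 bases, and Cd3e (chr9:44998735-45009663, minus strand) follows 11682 bases further on. Cd247 lies alone at chr1:165779952-165871153. Cd8b1 (chr6:71322788-71337492) and Cd8a (chr6:71373427-71379171), both on the plus strand, are 35934 bases apart, and Cd4 (chr6:124864693-124888247, minus strand) is on the same chromosome. Lck lies at chr4:129548344-129573641, Cd2 at chr3:101275908-101287939 and Foxp3 at chrX:7579676-7595243. The promoter windows of the 4 CD3 and zeta genes and of Cd8a are printed because these are the members whose libraries separated by genotype. Each runs 5′ to 3′ on the gene's own strand from 250 bases before to 50 bases after a transcript start in the RefSeq table. That start is the outer end of the gene as given above for Cd3g and Cd8a, lies slightly inside it for Cd3d and Cd3e, and lies well inside it for Cd247, whose window is thus not at the gene's outermost start. Capitals mark the ETS core GGAAG and the E-box CAGGTG, on either strand, so that they also appear as CTTCC and CACCTG; no marked motifs overlapped. The windows are chr9:44980382-44980681 (Cd3g), chr9:44981536-44981835 (Cd3d), chr9:45009562-45009861 (Cd3e), chr1:165788431-165788730 (Cd247) and chr6:71373177-71373476 (Cd8a).
Cd3g: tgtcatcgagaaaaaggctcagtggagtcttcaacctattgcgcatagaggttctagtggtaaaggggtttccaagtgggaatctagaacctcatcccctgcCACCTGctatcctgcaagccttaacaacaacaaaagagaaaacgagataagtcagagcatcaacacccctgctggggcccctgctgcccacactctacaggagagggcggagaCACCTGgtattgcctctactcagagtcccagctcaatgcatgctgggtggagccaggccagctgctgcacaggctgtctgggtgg
Cd3d: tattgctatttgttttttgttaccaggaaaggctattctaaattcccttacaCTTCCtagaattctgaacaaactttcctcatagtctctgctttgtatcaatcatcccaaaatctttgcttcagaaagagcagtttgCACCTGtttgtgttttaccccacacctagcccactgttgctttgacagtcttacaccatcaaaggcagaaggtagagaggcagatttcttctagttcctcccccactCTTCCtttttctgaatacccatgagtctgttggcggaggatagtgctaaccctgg
Cd3e: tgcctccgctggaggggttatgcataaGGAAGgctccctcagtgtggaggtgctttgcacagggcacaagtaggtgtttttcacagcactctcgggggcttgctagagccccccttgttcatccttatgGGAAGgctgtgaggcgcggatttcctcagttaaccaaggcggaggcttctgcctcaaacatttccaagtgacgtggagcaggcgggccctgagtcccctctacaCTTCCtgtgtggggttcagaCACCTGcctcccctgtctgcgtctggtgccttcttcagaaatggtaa
Cd247: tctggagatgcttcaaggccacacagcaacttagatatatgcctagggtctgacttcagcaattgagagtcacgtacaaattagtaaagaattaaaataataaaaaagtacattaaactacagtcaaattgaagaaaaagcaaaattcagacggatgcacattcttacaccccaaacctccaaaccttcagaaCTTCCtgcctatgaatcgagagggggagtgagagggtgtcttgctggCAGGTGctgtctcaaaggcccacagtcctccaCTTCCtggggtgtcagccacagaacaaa
Cd8a: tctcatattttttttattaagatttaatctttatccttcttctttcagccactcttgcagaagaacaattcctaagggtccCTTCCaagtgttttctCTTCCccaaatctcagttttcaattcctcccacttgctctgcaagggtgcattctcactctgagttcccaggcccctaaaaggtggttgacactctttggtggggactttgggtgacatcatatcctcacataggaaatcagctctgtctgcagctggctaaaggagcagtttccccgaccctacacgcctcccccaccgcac
Of the 10 members, 7 matched the RefSeq promoter table, with 9 windows since Lck and Foxp3 have 2 each. GGAAG was in 8 of these 9 windows and in 71.4% of all 32851 windows of the same length. CAGGTG was in 6 of 9 and in 20.2% of all windows, TGTGGT in 1 of 9 and in 16.8%, and TATAAA in 1 of 9 and in 13.6%. The Cd3g window held 2 E-boxes and no GGAAG, the Cd3e window 3 GGAAG and 1 E-box, and the Cd8a window 2 GGAAG and no E-box. A match of letters is a description of the window and not a site of binding.

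The CD3 and zeta genes had more counts in every Ocln-KO library than in any WT library once scaled for depth, while none of the 6 tested members passed the adjusted threshold. Cd3e, the epsilon chain that pairs with both gamma and delta, had 35, 47 and 28 counts in WT and 65, 55 and 70 in Ocln-KO, or 1.02 ± 0.321 against 1.94 ± 0.188 CPM (SD, n = 3 libraries each), a log2 fold change of 0.93 (SE 0.34, edgeR adjusted p = 0.123). Cd3d, the delta chain, had 6, 5 and 12 counts in WT and 13, 18 and 20 in Ocln-KO, or 0.210 ± 0.0982 against 0.521 ± 0.101 CPM, with a log2 fold change of 1.29 (SE 0.53, edgeR adjusted p = 0.152). The highest WT library of each gene stayed below the lowest Ocln-KO library. For Cd3g, the gamma chain, the counts were 12, 7 and 29 in WT and 26, 51 and 29 in Ocln-KO, or 0.436 ± 0.305 against 1.09 ± 0.443 CPM, a log2 fold change of 1.31 (SE 0.58, edgeR adjusted p = 0.183). Here the genotypes separated only after scaling and narrowly, at 0.781 CPM in WT replicate 3 against 0.810 CPM in Ocln-KO replicate 1. Cd247, the zeta chain that natural killer cells also use, had 15, 18 and 12 counts in WT and 49, 28 and 32 in Ocln-KO, or 0.417 ± 0.103 against 1.12 ± 0.356 CPM. Its log2 fold change of 1.42 was the largest of the tested members (SE 0.43, edgeR adjusted p = 0.0793). Of the 5329 exon bases of Cd247 in the GENCODE M21 annotation, 56.4% overlap exons of Pou2f1 on the other strand, and the strand setting of the counting was not stated, so that the origin of its counts is uncertain.

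**Figure D1:**
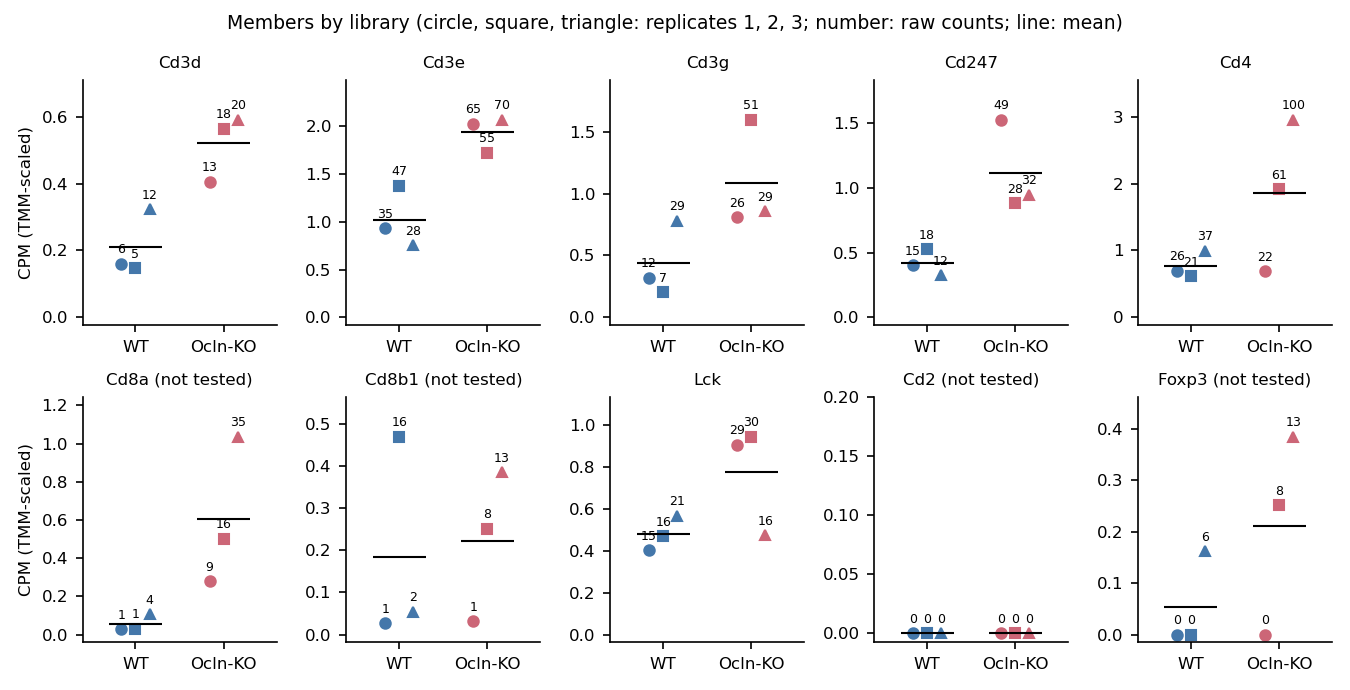
Level of each of the 10 members in CPM, scaled by TMM factors, in the WT (blue) and Ocln-KO (red) libraries, with the raw count printed above each point and the mean of 3 libraries as a line. Cd3d, Cd3e, Cd3g, Cd247 and Cd8a do not overlap between genotypes, Cd4 is high in Ocln-KO replicates 2 and 3 and at the WT level in replicate 1, and Cd2 is at 0 throughout.

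Summed over these 4 chains, the counts were 68, 77 and 81 in WT and 153, 152 and 151 in Ocln-KO. Scaled for depth, WT libraries summed to 1.82, 2.26 and 2.18 CPM, and those of Ocln-KO to 4.77, 4.77 and 4.47 CPM, a ratio of 2.24. The sums of the 3 Ocln-KO libraries were thus close to each other, although Gpx5 and Spag11b set replicate 1 far from replicates 2 and 3. The single chains were less alike. In Ocln-KO, Cd247 had 49, 28 and 32 counts and Cd3g had 26, 51 and 29, and these differences offset each other in the sum. The sum also includes the Cd247 counts, whose origin is uncertain. This sum was formed after the values had been seen and has no test; with 3 libraries against 3, an exact permutation test cannot give a p below 0.1 for any single value.

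Cd4, the coreceptor of helper and regulatory T cells that some phagocytes and dendritic cells also carry, did not separate by genotype. It had 26, 21 and 37 counts in WT and 22, 61 and 100 in Ocln-KO, or 0.769 ± 0.201 against 1.85 ± 1.14 CPM, with a log2 fold change of 1.27 (SE 0.54, edgeR adjusted p = 0.167). Ocln-KO replicate 1 lay within the WT range, and replicates 2 and 3 lay above it. These are the 2 libraries with high Gpx5 and Spag11b, and without them the log2 fold change of Cd4 was -0.17 (SE 0.65, edgeR adjusted p = 0.908), whereas without Ocln-KO replicate 1 it was 1.66 (SE 0.40, edgeR adjusted p = 0.0497). Under the same removal of replicates 2 and 3, the log2 fold changes of the other tested members were 0.99 for Cd3e, 0.93 for Cd3d, 0.89 for Cd3g, 1.87 for Cd247 and 0.91 for Lck, none of them past the adjusted threshold.

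Cd8a, the alpha chain of CD8 on cytotoxic T cells and on a subset of dendritic cells, had 1, 1 and 4 counts in WT and 9, 16 and 35 in Ocln-KO. The sums of 6 and 60 counts gave a pooled ratio of 11.1 after scaling, with an exact 95% interval of 4.82 to 31.5 that covers counting error only. Every Ocln-KO library exceeded every WT library. Cd8a was not tested because only 2 libraries reached the filter's cutoff of 0.295 CPM and 3 were needed, with Ocln-KO replicate 1 just below it at 0.294 CPM on unscaled totals. In the fit with no filter on low counts its log2 fold change was 3.38 (SE 0.89, edgeR adjusted p = 0.0374). That call was lost in 5 of the 6 fits that each left out 1 library and let Cd8a through the filter (adjusted p = 0.0883 to 0.154), and was kept without Ocln-KO replicate 1 (log2 fold change 3.73, adjusted p = 0.0414). In each of these fits with a filter Cd8a passed through Ocln-KO libraries only, where it was high, so those fits had selected it for a difference. Without Ocln-KO replicates 2 and 3 together the log2 fold change of Cd8a was 2.28 (SE 1.41, edgeR adjusted p = 0.373). Cd8b1, the beta chain that marks conventional cytotoxic T cells, had 1, 16 and 2 counts in WT and 1, 8 and 13 in Ocln-KO, with a pooled ratio of 1.29 (exact 95% interval 0.665 to 2.52), and the genotypes overlapped. In the fits that let Cd8b1 through the filter its log2 fold change ran from -2.41, without Ocln-KO replicates 2 and 3 together, to 0.82, without Ocln-KO replicate 1. The contrast between the 2 CD8 chains rested largely on WT replicate 2, where Cd8b1 had its highest count, 16, and Cd8a had 1. Outside that library Cd8b1 had 1 and 2 counts in WT and 1, 8 and 13 in Ocln-KO.

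As a share of the counts of Cd4 and Cd8a together, Cd8a made up 3.70%, 4.55% and 9.76% in the WT libraries and 29.0%, 20.8% and 25.9% in the Ocln-KO libraries. Pooled, these were 6 of 90 counts, or 6.67% (exact binomial 95% interval 2.49 to 13.9%), and 60 of 243 counts, or 24.7% (19.4 to 30.6%). All 3 Ocln-KO shares lay above all 3 WT shares, while the intervals of single libraries overlapped. The share does not depend on the depth scaling, was formed after the values had been seen, and was not tested. Summed markers of dendritic cells were at 19.0 to 23.3 CPM in WT and 31.4 to 49.5 CPM in Ocln-KO. The edgeR test called 0 of 8 tested markers, beside 3.91% of all genes called higher and 5.04% lower. At an unadjusted p under 0.05, 5 of the 8 were higher, beside 13.9% of all genes. The part of dendritic cells in the Cd8a counts was not tested.

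**Figure D2:**
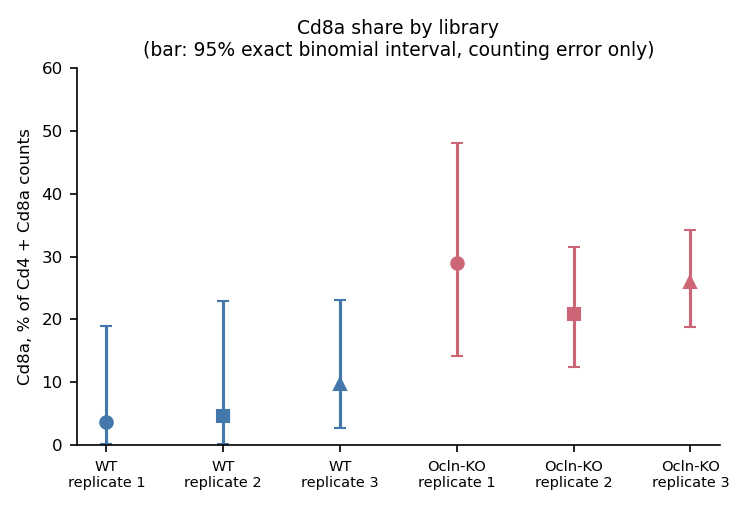
Cd8a counts as a percentage of Cd4 and Cd8a counts in each library, with exact binomial 95% intervals that cover counting error only. The WT libraries lie at 3.70 to 9.76% and the Ocln-KO libraries at 20.8 to 29.0%.

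Lck, the kinase that coreceptors carry to the receptor, had 15, 16 and 21 counts in WT and 29, 30 and 16 in Ocln-KO, or 0.478 ± 0.0827 against 0.773 ± 0.260 CPM. Its log2 fold change was 0.69 (SE 0.45, edgeR adjusted p = 0.353), and Ocln-KO replicate 3 fell inside the WT range. Foxp3, the transcription factor of regulatory T cells, had 0, 0 and 6 counts in WT and 0, 8 and 13 in Ocln-KO, with a pooled ratio of 3.89 (exact 95% interval 1.52 to 11.8), but 3 of the 6 libraries held no count, which allows up to 3 counts or 0.0802 to 0.0935 CPM in each. Per 100 Cd4 counts, Foxp3 had 16.2 counts in WT replicate 3 and 13.1 and 13.0 in Ocln-KO replicates 2 and 3. Its exons overlap those of Ccdc22, Flicr and Ppp1r3f, so that single counts cannot be placed with confidence. Cd2, an adhesion receptor found on nearly all T and natural killer cells, was listed at 0 in all 6 libraries. Ctla4, Tnf, Il17a and Ltb were likewise listed at 0 throughout, and no reason for these zeros was tested.

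Taking the members as a list, edgeR called 0 of the 6 tested at its adjusted threshold of 0.05, against 3.91% of all 19691 tested genes called higher and 5.04% called lower. At an unadjusted p under 0.05, 4 of the 6 (Cd3d, Cd3e, Cd247 and Cd4) were higher, beside 13.9% of all genes. By library ranges 4 of the 6 were higher with no overlap, beside 16.9%. A fitted fold change over 2 was found for 4 of the 6 (Cd3d, Cd3g, Cd247 and Cd4), beside 5.36% of all genes. All 6 had a positive log2 fold change (median 1.28, range 0.69 to 1.42), beside 50.9% positive and a median of 0.01 over all genes. The filter lets a scarce gene through if 3 libraries reach the cutoff. Cd3d reached it in 4 libraries and Cd3g in 5, in each case with all 3 of Ocln-KO among them. Neither would have passed on its WT libraries alone, so these counts describe the tested genes only. DESeq2 and limma-voom also called 0 of the 6, with a lowest adjusted p of 0.0552 and 0.0905. Removing the filter called 1 member (Cd8a), requiring 10 counts in every library called 1 (Cd247, edgeR adjusted p = 0.0479), and leaving out Ocln-KO replicate 1 called 2 (Cd4, and Cd8a, which passed the filter through Ocln-KO libraries only). Each of these fits tested other genes or fewer libraries.

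**Figure D3:**
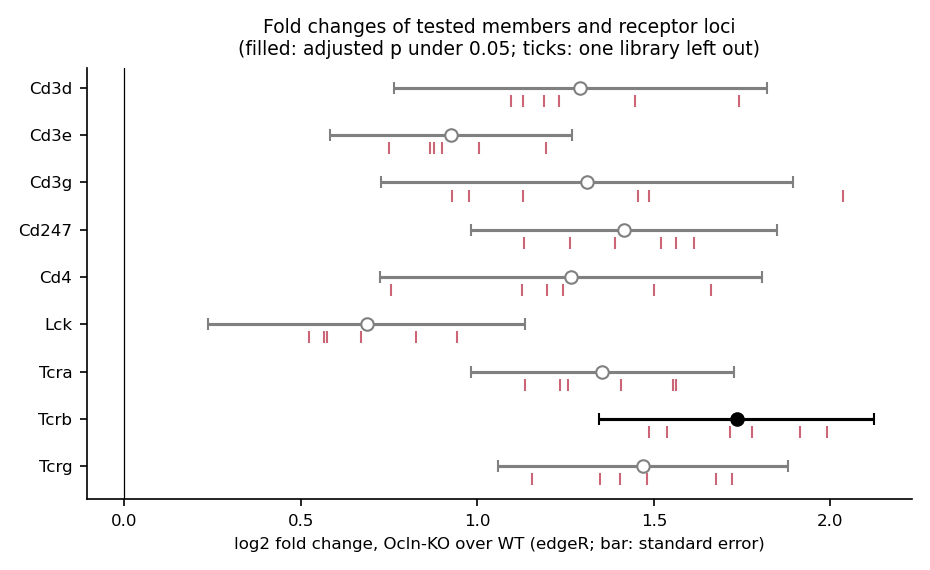
Log2 fold change of Ocln-KO over WT with its standard error for the 6 tested members and 3 receptor locus rows, with ticks for the fits that each left out 1 library. All lie above 0, and Tcrb, filled, has the only adjusted p under 0.05 in the edgeR fit shown.

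The 10 members together had 111, 131 and 151 counts in WT and 214, 275 and 328 in Ocln-KO, that is 393 against 817 counts. In scaled levels the sums were 2.97, 3.84 and 4.07 CPM against 6.67, 8.63 and 9.71 CPM, a ratio of 2.30, and no library of one genotype reached the other. Even in Ocln-KO the members made up 0.000698 to 0.00100% of all counts. In RNA of a whole organ, a larger number of T cells and more RNA per T cell cannot be told apart. Over the 6 libraries the 15 pairs of tested members had Pearson correlations of log2 CPM from 0.13 to 0.94 (median 0.61), which share the genotype difference and the depth of the same libraries.

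Per kilobase of GENCODE M21 exon, the mean levels in WT followed the order Cd3e (0.251 RPKM), Cd4 (0.191), Lck (0.163), Cd3g (0.133), Cd8b1 (0.124), Cd3d (0.116), Cd247 (0.0783), Cd8a (0.0150), Foxp3 (0.0118) and Cd2 (0). In Ocln-KO the order was Cd3e (0.476 RPKM), Cd4 (0.460), Cd3g (0.333), Cd3d (0.287), Lck (0.264), Cd247 (0.210), Cd8a (0.167), Cd8b1 (0.150), Foxp3 (0.0463) and Cd2 (0). Among genes with counts, neighbours in either order overlapped in their library ranges, with the exception of Cd247 and Cd8a in WT.

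The receptor chains that the CD3 proteins accompany gave another readout. The table holds 270 rows for single receptor segments, but only 3 of these had any count, with sums of 8, 16 and 2 counts in WT and 16, 8 and 12 in Ocln-KO (ratio of scaled sums 1.50, exact two-sided permutation p = 0.4; 2.75 without WT replicate 2). The 3 segment rows with a count were Tcrg-C2 (15 counts in WT against 28 in Ocln-KO), Trgv2 (11 against 7) and Trbv31 (0 against 1). Their sum thus came almost wholly from gamma segments, and it cannot speak for the alpha and beta chains. Whole-locus rows named Tcra, Tcrb and Tcrg held more counts, and were read after the segment rows had been seen to be nearly empty. In RefSeq each is a single entry over a whole locus (chr14:52427967-54224198, chr6:40891296-41558371 and chr13:19178042-19356476). Which reads the counting assigned to these rows, and their overlap with other genes, were not checked. Their counts are therefore read by row and not as levels of single receptor chains. Tcrb, the beta locus, had 33, 16 and 24 counts in WT and 53, 67 and 99 in Ocln-KO, a log2 fold change of 1.74 (SE 0.39, edgeR adjusted p = 0.0376). It rose, but the call was lost in 5 of the 6 fits that left out 1 library, all but the fit without Ocln-KO replicate 1 (adjusted p = 0.0646 to 0.129), without Ocln-KO replicates 2 and 3 together (0.208), and with the replicate number as a block (0.108). Tcra, the alpha locus, had 39, 42 and 24 counts in WT and 56, 90 and 98 in Ocln-KO, with a log2 fold change of 1.35 (SE 0.37, edgeR adjusted p = 0.0610). Its adjusted p fell under 0.05 in 4 of 14 alternatives. These were DESeq2 (0.0121) and edgeR with total counts only (0.0491), with at least 10 counts in every library (0.0487) or without Ocln-KO replicate 1 (0.0488). Tcrg, the gamma locus of a T cell lineage common in epithelia, had 22, 31 and 24 counts in WT and 63, 39 and 93 in Ocln-KO, with a log2 fold change of 1.47 (SE 0.41, edgeR adjusted p = 0.0634). Its adjusted p fell under 0.05 in 2 of 14 alternatives, DESeq2 (0.0167) and edgeR with at least 10 counts in every library (0.0486). DESeq2 thus called all 3 loci, with an adjusted p of 0.00202 for Tcrb. In all 3 loci every Ocln-KO library lay above every WT library, as it did for 16.9% of all tested genes. Tcrd, the delta locus, was at 0 in all 6, and no reason for this zero was tested. Tcrg made up 36.1%, 42.5% and 50.0% of Tcra and Tcrg counts in WT and 52.9%, 30.2% and 48.7% in Ocln-KO, and these shares overlapped.

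Beyond the receptor itself, 5 of 24 tested genes of proximal receptor signalling rose and 0 fell (26 genes listed, median log2 fold change 0.51), beside 3.91% higher and 5.04% lower over all genes tested. Among them were Ptprc, the CD45 phosphatase of all leukocytes (log2 fold change 1.54, edgeR adjusted p = 0.0110), the adaptors Lcp2 (1.53, adjusted p = 0.0364) and Fyb (1.12, adjusted p = 0.0287), and the exchange factor Vav1 (1.25, adjusted p = 0.0393). These 4 genes also serve myeloid cells. The most T cell-restricted steps downstream of LCK did not pass: Zap70 had 15, 23 and 28 counts in WT and 25, 31 and 26 in Ocln-KO (log2 fold change 0.46, SE 0.41, edgeR adjusted p = 0.504). Lat, the membrane adaptor that ZAP-70 phosphorylates, had 14, 22 and 21 counts against 12, 15 and 32 (log2 fold change 0.18, SE 0.51, edgeR adjusted p = 0.849). Leaving out 1 library moved the number of called signalling genes to between 0 and 6, with 0 without WT replicate 1 or WT replicate 3 and 1 without WT replicate 2 or Ocln-KO replicate 2.

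Among costimulatory and other T cell surface genes, 3 of 12 tested rose and 1 fell (21 listed, median log2 fold change 0.98), where the shares over all genes were 3.91% and 5.04%. Il7r, the receptor for the survival cytokine interleukin 7, had 33, 46 and 22 counts in WT and 128, 174 and 140 in Ocln-KO (log2 fold change 2.27, SE 0.35, edgeR adjusted p = 0.0184). Cd7, a surface glycoprotein of T and natural killer cells, had 1, 2 and 0 counts against 19, 14 and 20 (pooled ratio 19.6, exact 95% interval 6.37 to 98.3; edgeR adjusted p = 0.0263). All 3 WT libraries of Cd7 were below the filter's cutoff, so that it was tested only because it was high in Ocln-KO, and its call is no support for the list. Il2rb, shared by the interleukin 2 and 15 receptors, had 73, 45 and 49 against 104, 183 and 153 (log2 fold change 1.55, adjusted p = 0.0297). Cd5, a scavenger-type receptor on T cells and some B cells, went the other way with 129, 123 and 159 counts in WT and 50, 51 and 20 in Ocln-KO (log2 fold change -1.59, SE 0.39, edgeR adjusted p = 0.0464). Per kilobase its WT level of 0.767 RPKM was above that of every member, and its direction was opposite to all 4 CD3 and zeta chains. The call on Cd5 was lost in the fits without any one of WT replicates 1 to 3, Ocln-KO replicate 1 or Ocln-KO replicate 2, and 0 of the 3 higher calls stood without WT replicate 1 or WT replicate 3, with 1 without WT replicate 2 or Ocln-KO replicate 2.

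Of 14 tested transcription factors of T cell identity and fate, 1 rose and 2 fell (16 listed, median log2 fold change 0.12), beside 3.91% higher and 5.04% lower of all genes. Ets1 rose (log2 fold change 0.66, edgeR adjusted p = 0.0331), whereas Lef1 (-0.77, adjusted p = 0.0401) and the lymphoid factor Ikzf1 (-1.01, adjusted p = 0.0307) fell. Per kilobase, the WT levels of Ikzf1 (5.40 RPKM) and of Tcf7, the factor of naive and memory T cells (57.6 RPKM), were above the 0.251 RPKM of Cd3e, the highest member. Tcf7 had 5868, 6466 and 3971 counts in WT and 2015, 5823 and 7692 in Ocln-KO, and the genotypes overlapped (log2 fold change 0.06, SE 0.42, edgeR adjusted p = 0.940). Without WT replicate 1, 2 or 3 none of the 3 calls of this list stood, without Ocln-KO replicate 2 there were 0 higher and 1 lower, and without Ocln-KO replicate 1 there were 2 higher and 1 lower. Of effector and homing genes, 0 of 10 tested were called by edgeR (23 listed), and DESeq2 called 2. At an unadjusted p under 0.05 by edgeR, 5 of the 10 were higher, beside 13.9% of all genes. All 10 log2 fold changes were positive (median 1.09), beside 50.9% of all genes. Both counts include Nkg7, which had 6, 13 and 5 counts in WT and 21, 23 and 22 in Ocln-KO. Of its WT libraries only replicate 2 reached the filter's cutoff, so Nkg7 passed the filter by its level in Ocln-KO and is no support for the list. The most abundant of the tested genes was S1pr1, the exit receptor of lymphocytes and of endothelium (log2 fold change 0.27, edgeR adjusted p = 0.438).

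**Figure D4:**
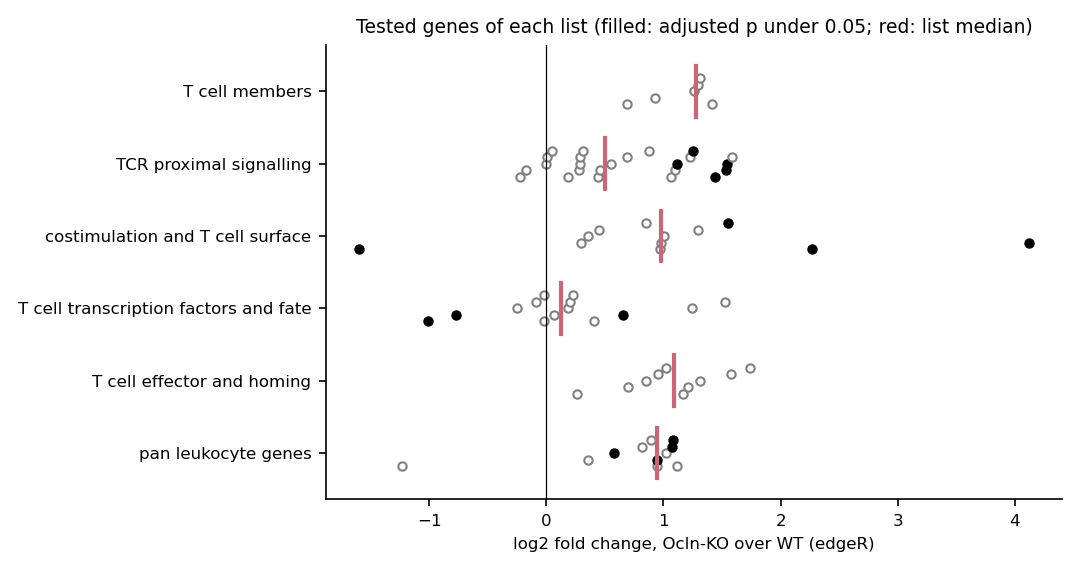
Log2 fold change of each tested gene of 6 lists, filled where the edgeR adjusted p was under 0.05, with the list median as a red line. The T cell members have the highest median, 1.28, with none filled, and the signalling list holds 5 filled genes to the right of 0.

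Genes of other leukocytes were read in the same libraries. Of 11 tested pan-leukocyte genes, 4 rose and 0 fell (median log2 fold change 0.95), against 3.91% and 5.04% of all genes; the 4 were Lcp1 (0.58, edgeR adjusted p = 0.0369), Arhgdib (1.07, adjusted p = 0.0175), Dock2 (0.95, adjusted p = 0.0459) and Hcls1 (1.08, adjusted p = 0.0313). The count ranged from 0, without any one WT library, to 7, without Ocln-KO replicate 1, and was 1 without Ocln-KO replicate 2. Summed natural killer markers were at 2.37 to 3.69 CPM in WT and 5.27 to 11.3 CPM in Ocln-KO. None of the 10 was at 0 in every library. The edgeR test called 1 of 4 tested, Klrb1c, beside 3.91% of all genes called higher. At an unadjusted p under 0.05, all 4 tested were higher, beside 13.9% of all genes, with a median log2 fold change of 1.24. Klrb1c had 9, 6 and 17 counts in WT and 32, 76 and 70 in Ocln-KO (log2 fold change 2.62, edgeR adjusted p = 0.0301). Of its WT libraries only replicate 3 reached the filter's cutoff, so Klrb1c passed the filter by its level in Ocln-KO. Natural killer cells share Cd247, Lck, Il2rb and Cd7 with T cells, and their part in those counts was not tested. Summed markers of mononuclear phagocytes were at 237 to 242 CPM in WT and 251 to 385 CPM in Ocln-KO, with 0 of 12 called by edgeR. At an unadjusted p under 0.05, 8 of the 12 were higher, beside 13.9% of all genes. Set against these phagocyte markers, the members had 1.23, 1.62 and 1.69 CPM per 100 CPM in WT and 2.65, 2.80 and 2.52 in Ocln-KO, so the member sum was higher by this measure in all 3 Ocln-KO libraries. Set against Ptprc, whose levels were 10.8 to 15.1 CPM in WT and 29.2 to 46.3 CPM in Ocln-KO, the CD3 and zeta chains had 12.1, 17.0 and 20.2 counts per 100 Ptprc counts in WT and 16.3, 12.3 and 9.64 in Ocln-KO, and the genotypes overlapped.

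**Figure D5:**
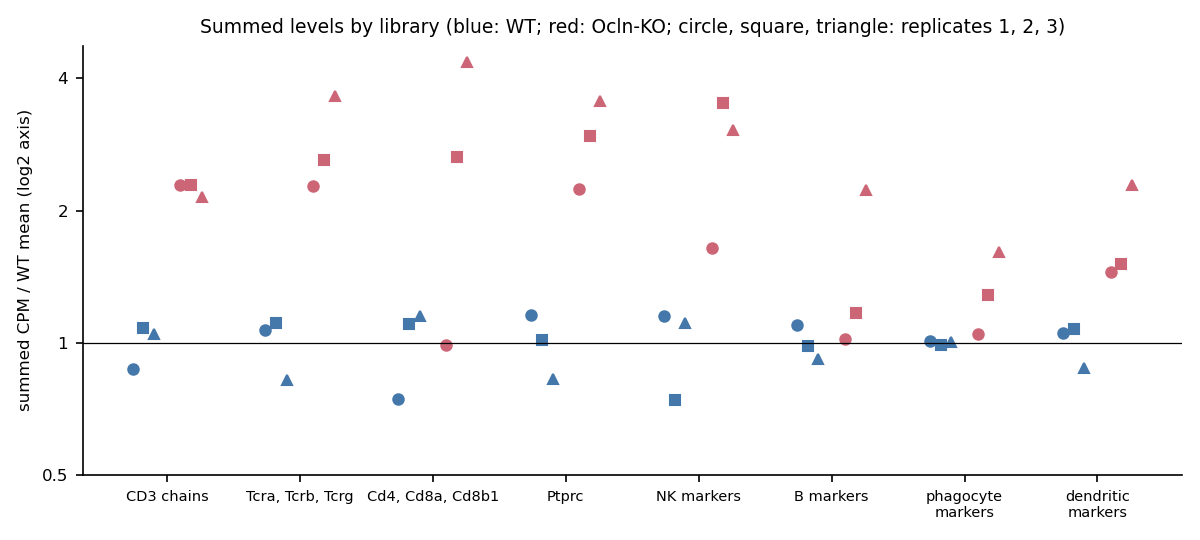
Summed CPM of gene groups in each library divided by the mean of the 3 WT libraries, on a log2 axis. The sum of the 4 CD3 and zeta chains is tight in Ocln-KO, at 4.47 to 4.77 CPM against 1.82 to 2.26 CPM in WT, although single chains varied more. The Ocln-KO libraries spread more widely for Cd4, Cd8a and Cd8b1 together, natural killer markers and dendritic markers.

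Over the 6 libraries, the 5 genes of at least 1 CPM whose log2 CPM most resembled the mean of the tested members were Map7d1 (Pearson r = 0.996), Fam46a (0.993), Radil (0.992), Ppwd1 (0.992) and Col12a1 (0.992), out of 16356 compared. With 6 libraries that share a genotype difference such values describe the ranking only.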

How the data were processed

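RNA of whole epididymis from 3 WT and 3 Ocln-KO libraries was measured by paired-end RNA-seq from a directional kit. Per the submitters' processing notes, reads were aligned with HISAT2 (version 2.0.4) to GRCm38. According to the methods, HTSeq then counted reads per gene; its strand setting and mode are not given in the sources used here. The authors deposited one table of raw counts per gene, whose columns were matched to samples by name (0 columns unmatched). Of its 57127 rows, 28 carry symbols that a spreadsheet had turned into dates or numbers (0.145% of counts), and none of these is a member.

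Genes were filtered with filterByExpr, scaled with TMM and tested with the edgeR quasi-likelihood test (edgeR 4.0.16, R 4.3.3), with Benjamini-Hochberg adjustment over the 19691 genes kept and a threshold of 0.05. The methods used DESeq2 and added a fold threshold of 2, so DESeq2 (1.42.0) and limma-voom (3.58.1) were run as alternatives, with other scalings and filters, the replicate block and each library left out. The 3 tools were tested on simulated data. CPM values use TMM-scaled totals, and RPKM values divide these by exon length in GENCODE M21, which may differ from the authors' annotation. Pooled ratios and shares have exact binomial 95% intervals that cover counting error only, and 3 counts is the limit that a count of 0 allows.

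The members and all 14 gene lists were chosen with earlier results of these data known, so no list is independent evidence. Named were all members, Ocln, up to 6 called genes of each list by size of change (the 2 most abundant where fewer than 2 passed), and the 5 genes of nearest pattern; others named (Zap70, Lat, Tcf7, Cd52, Gpx5, Spag11b and those at 0) were picked after their values were seen. Some genes that this rule names are not reported here. A planned permutation p for the member sum was left out, since the members are a chosen list. Receptor segment rows proved nearly empty, so the locus rows were added after seeing the data. Same-numbered WT and Ocln-KO libraries did not deviate together, so the replicate number is not treated as a pairing.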

Additional observations from a re-analysis of the deposited data

How the results depend on the processing

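Across 14 alternatives, or 13 for genes that a stricter filter removed, the log2 fold changes of Cd3d (0.93 to 1.74), Cd3e (0.75 to 1.19), Cd3g (0.89 to 2.03), Cd247 (1.13 to 1.87) and Lck (0.52 to 0.94) stayed positive. Cd4 ranged from -0.17 to 1.66 and turned negative, at -0.17, only without Ocln-KO replicates 2 and 3 together, a setting chosen after seeing the data. The number of called members was 1 with no filter on low counts and 1 with at least 10 counts in every library, and 0 to 2 with 1 library left out. With 1 library left out, called genes ranged from 0 to 6 higher in signalling, 0 to 4 higher and 0 to 1 lower in costimulation, 0 to 2 higher and 0 to 2 lower among transcription factors, 0 to 2 higher in the effector list, and 0 to 7 higher and 0 to 1 lower among pan-leukocyte genes. DESeq2 called 8 signalling, 2 transcription factor, 2 effector and 9 pan-leukocyte genes higher. Scaling by total counts, which moved the median log2 fold change of all genes from 0.01 to 0.09, gave 2 transcription factors higher and 1 lower and 0 costimulation genes lower, and a CD3 and zeta ratio of 2.37. With no filter 2 transcription factors and 1 effector gene were higher, and with at least 10 counts in every library 2 transcription factors were. Without Ocln-KO replicates 2 and 3 together, 2 signalling, 1 costimulation, 0 transcription factor and 1 pan-leukocyte genes were higher, and 0 costimulation and 1 pan-leukocyte genes were lower. With 1 library left out, the ratio of summed CD3 and zeta chains was 2.10 to 2.33, that of all members 2.11 to 2.54, and that of the segment rows 1.08 to 2.75. Beyond fits with fewer genes or libraries, the cause of these shifts was not tested.

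Labels give WT and Ocln-KO the same replicate numbers, but deviations of same-numbered libraries from their genotype means correlated at -0.05, -0.03 and -0.003, so they share only a number. With the replicate block, 0 members were called (lowest edgeR adjusted p = 0.167), as were 0 genes in either direction of the signalling, costimulation, transcription factor and pan-leukocyte lists, and 10 genes higher and 31 lower over all genes, against 770 and 992 without it. The call on Tcrb was lost (log2 fold change 1.74, edgeR adjusted p = 0.108). The members' depth of 0 to 100 counts a library limits all these values.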

Other observations

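Outside the T cell genes, the B cell list split in direction. Spib, a transcription factor of B cells and plasmacytoid dendritic cells, had 13, 4 and 7 counts in WT and 33, 30 and 40 in Ocln-KO (log2 fold change 2.25, SE 0.50, edgeR adjusted p = 0.0372). Of its WT libraries only replicate 1 reached the filter's cutoff, so Spib passed the filter by its level in Ocln-KO. Fcrla, an Fc receptor-like protein of B cells, had 60, 48 and 48 counts in WT and 12, 6 and 16 in Ocln-KO (log2 fold change -2.04, SE 0.44, edgeR adjusted p = 0.0351). Summed over all 10 B cell markers the level was 2.99 to 3.56 CPM in WT and 3.30 to 7.22 CPM in Ocln-KO, so the genotypes overlapped. Cpa3, the carboxypeptidase of mast cells, had 23, 13 and 5 counts in WT and 88, 86 and 44 in Ocln-KO (log2 fold change 2.56, SE 0.57, edgeR adjusted p = 0.0373). It was the only called gene of 4 tested neutrophil and mast cell markers, beside 3.91% of all genes called higher and 5.04% lower. Of 7 genes of lymphoid tissue stroma, 3 had no count in any library, and Cxcl13, the chemokine that draws B cells into follicles, had 41, 53 and 20 counts in WT and 43, 40 and 29 in Ocln-KO (log2 fold change 0.12, edgeR adjusted p = 0.893). Cd52, a leukocyte surface glycoprotein that epididymal epithelium also makes in large amounts, had 97510, 79625 and 100687 counts in WT and 40745, 51934 and 11769 in Ocln-KO (log2 fold change -1.24, SE 0.46, edgeR adjusted p = 0.127), against the direction of the other pan-leukocyte genes tested.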
